A study of Mus musculus with 4 samples.

Results

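Genes of pluripotency and of the germ line were examined in mouse embryos whose Noto gene, which encodes a homeodomain factor of node and notochord cells, carries GFP. The 10 genes are Pou5f1, Nanog, Sox2, Utf1, Zfp42, Dppa3, Dppa4, Prdm1, Ifitm3 and Kit. They were chosen by name, through the gene name or accession of each probe, and all 10 were found among the 27591 genes and accessions on the array, with 11 of its 41174 gene probes. The homozygotes were Noto GFP/GFP and the heterozygotes Noto GFP/+, both of the NotoGFP strain on a Sv129/CD-1 hybrid background and both collected at the early headfold stage (about E7.75). Both genotypes thus carry at least 1 GFP allele, and wild-type embryos were not analysed here. The distal piece of each embryo, which holds the node, was cut off and pooled with others (120 to 150 per pool), and the labels differ on how large that piece was. RNA of 1 pool per genotype was hybridised to 2 two-colour Agilent arrays with exchanged dyes, which makes 4 samples, 2 per genotype. Homozygote RNA was in Cy5 on array 1 and in Cy3 on array 2.

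In mouse, POU5F1 (OCT4), SOX2 and NANOG form the transcription factor core that keeps cells of the inner cell mass and epiblast pluripotent. The core is shut down as the epiblast forms the germ layers, while SOX2 goes on in the neural plate. A few posterior epiblast cells near the base of the allantois instead become primordial germ cells, under PRDM1 (BLIMP1), and keep or regain pluripotency genes. They are known by DPPA3 (STELLA), by the membrane protein IFITM3 (FRAGILIS) and by the receptor tyrosine kinase KIT. How much of that posterior region the distal pieces held was not examined, so the share of germ cells in the pools is unknown.

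Most of these genes rest on 1 probe of 60 bases, so a few probe sequences are given here, 5′ to 3′ as in the scanner files. The Utf1 probe is shown because Utf1 had the ratio farthest from 0, and the Pou5f1 probe because its listed position spans 61 bases rather than 60. Of the pair of Zfp42 probes, the last or first 30 bases are shown, with the 20 bases that both hold in capitals, because their readings share that sequence and are not independent.
Utf1 probe (chr7:139795541-139795600, plus strand, mm8): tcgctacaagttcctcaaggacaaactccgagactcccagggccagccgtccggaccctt
Pou5f1 probe (chr17:35118388-35118448, plus strand, mm8): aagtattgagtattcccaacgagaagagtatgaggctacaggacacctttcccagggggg
Zfp42 probe 2, its last 30 bases: ccttactataTGTGCTATTGAAGGGGATGG
Zfp42 probe 1, its first 30 bases: TGTGCTATTGAAGGGGATGGggacttttgc

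The part of the transcript under each probe was not looked up. The GC content of the 11 probes ran from 35% in the Nanog, Sox2 and Dppa3 probes to 60% in the Utf1 probe. Dppa3 and Nanog are neighbours, with probes 83.9 kb apart on chromosome 6, and Utf1 and Ifitm3 both lie on chromosome 7.

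POU-family factors bind an octamer whose core is TTTGCAT, and POU5F1 and SOX2 bind many of their target promoters together. That core was looked for on both strands in the 250 bases before each annotated start, in RefSeq promoters of GRCm38.p6. It was present in 4 of the 11 promoters that the table holds for 8 of the 10 genes, and in 4.12% of all 32851 promoters. The 4 belong to 3 genes, Nanog, Sox2 and Zfp42. Dppa3 and Dppa4 had no entry. The 3 stretches are shown because the first group of results concerns POU5F1, SOX2 and genes of their network. They are on the strand of the gene, with the match in capitals. A match is a run of letters and not evidence of binding.
Nanog (chr6:122707374-122707460, plus strand, GRCm38.p6): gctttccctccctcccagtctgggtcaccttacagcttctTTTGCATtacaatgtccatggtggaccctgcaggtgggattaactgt
Zfp42 (chr8:43307148-43307234, minus strand, GRCm38.p6): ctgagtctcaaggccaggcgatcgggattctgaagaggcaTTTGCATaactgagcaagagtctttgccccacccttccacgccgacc
Sox2 (chr3:34649856-34649942, plus strand, GRCm38.p6, match on the other strand): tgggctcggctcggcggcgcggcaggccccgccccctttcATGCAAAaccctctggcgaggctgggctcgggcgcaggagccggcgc

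Levels are log2 intensities after background correction, within-array loess and quantile normalization of average brightness between the arrays. They are given for arrays 1 and 2 in that order, and levels of different probes are not compared. Raw foreground over local background is taken before normalization and differs with the dye. It shows how far a probe stood above background and is not a comparison of genotypes. Ratios are log2 of homozygote over heterozygote within an array, and a mean ± SD is over the 2 arrays. That SD is technical, since each genotype is 1 pool. The ratios therefore carry no test and no p-value. A gene counted as measured when its probe was well above background on both arrays in at least 1 genotype, and as called when the ratio was at least 1.5-fold (0.585 on the log2 scale) the same way on each array. Between 64.0% and 81.5% of gene spots were well above background in the 4 samples, and 0 were saturated. The labels were not checked against Noto, which was not analysed here. All 12 listed node and notochord genes were well above background in both genotypes on both arrays, among them Foxj1 and T. In pooled tissue, fewer cells of a type and less RNA per cell cannot be told apart.

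Of the 10 genes, 9 were measured and 0 were called, where the rule called 2.41% of the 18579 measured genes. By direction, 0 of the 9 were higher, beside 0.0592% of measured genes (11), and 0 were lower, beside 2.35% (437). In the authors' value table that split was 95 higher and 651 lower. At a 1.3-fold limit still 0 of the 9 were called, beside 5.55% of measured genes. With array 2 alone the count was 1, Utf1, where 5.69% of measured genes were past the limit, and with array 1 alone it was 0, where 4.13% were. Mean ratios of the 9 ran from -0.24 (Sox2) to 0.49 (Utf1), with a median of -0.02, beside -0.02 for all measured genes. The median over the 9 was 0.11 on array 1 and 0.09 on array 2, both above the median of the means. On both arrays the ratio was above 0 for Utf1, Zfp42 and Dppa3 and below 0 for Sox2. For the other 5, Pou5f1, Nanog, Prdm1, Ifitm3 and Kit, it changed sign when the dyes were exchanged. Among all measured genes 59.7% kept their sign, with 25.7% above 0 on both arrays and 34.0% below.

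**Figure D1:**
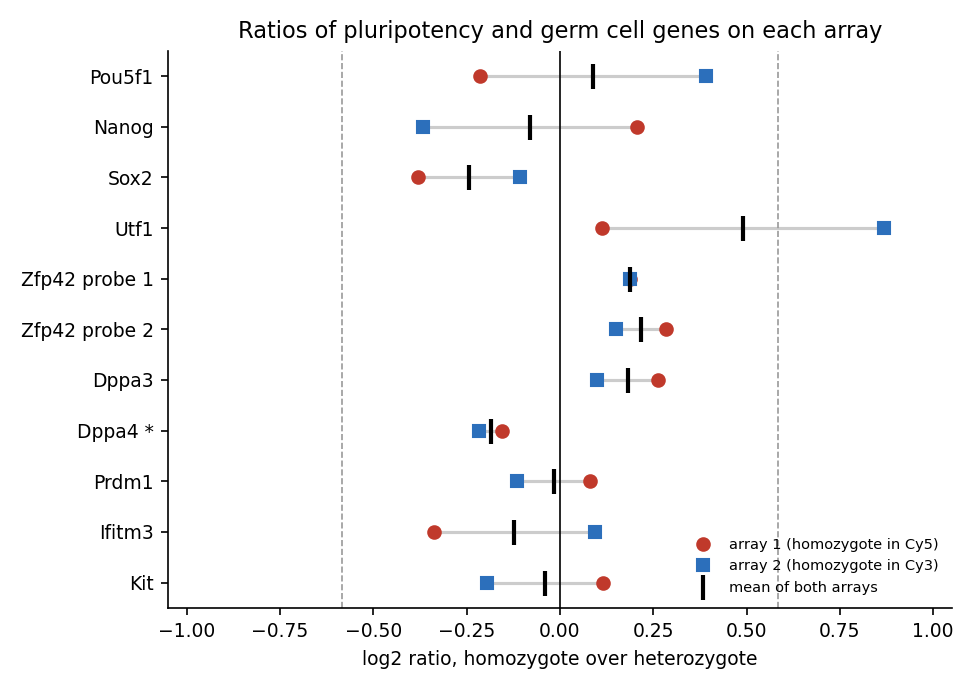
Log2 ratio of homozygote over heterozygote (x axis) for each probe of the 10 genes (rows), on array 1 (circles) and array 2 (squares), with the mean as a bar. Dashed lines mark 1.5-fold, and the asterisk marks Dppa4, which was not measured. Only the array 2 value of Utf1, at 0.87, lies beyond a dashed line, and Pou5f1, Nanog, Prdm1, Ifitm3 and Kit have values on either side of 0.

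Pou5f1, the POU-domain factor at the head of the core, was bright in both genotypes. Its level was 15.04 and 15.93 in the homozygote, against 15.25 and 15.54 in the heterozygote. The homozygote held both the lowest and the highest of these 4 values, so the genotypes overlap. Raw foreground was 814 and 817 times the local background in the homozygote, against 421 and 1441 times in the heterozygote. Before normalization the sample in Cy5 was thus the larger on both arrays. The ratio was -0.21 on array 1 and 0.39 on array 2, a mean of 0.09 ± 0.43. On both arrays the sample in Cy3 read higher after normalization. The SD was larger than that of 96.0% of measured genes, and than that of 90.5% of the genes in the brightest of 5 equal bins, where Pou5f1 lay.

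Nanog encodes the homeobox factor that stabilises the pluripotent state and is on again in the posterior epiblast of the mouse gastrula. Its probe lies at chr6:122679692-122679751, plus strand, mm8. It read 12.80 and 12.38 in the homozygote, against 12.59 and 12.75 in the heterozygote. The genotypes overlap, and the homozygote was the higher on array 1 and the lower on array 2. The ratio was 0.21 and then -0.37, a mean of -0.08 ± 0.40, with Cy5 reading higher on both arrays. That is the opposite dye to Pou5f1, and the SD exceeded that of 95.2% of measured genes. Median centring without loess gave a mean of 0.13, and 0.01 relative to the median of all genes in that setting.

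Sox2, the HMG-box partner of POU5F1 and a neural plate factor, was the 1 measured gene of the 10 below 0 on both arrays. Its probe lies at chr3:34843400-34843459, plus strand, mm8. Its level was 13.44 and 13.33 in the homozygote, against 13.83 and 13.44 in the heterozygote. The difference was larger on array 1, and the level of the homozygote on array 1 met that of the heterozygote on array 2. The ratio was -0.38 and -0.11, a mean of -0.24 ± 0.19 or 0.844-fold, which is short of the rule on each array. Of the measured genes, 79.3% had a mean closer to 0. With median centring Sox2 read -0.02, or -0.14 relative to the median of all genes in that setting.

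Sox2 is shared with the neural plate, so neural genes are given beside it. Of 12 listed neural plate genes, 11 were measured and 0 called, with a median ratio of -0.14. On both arrays 6 of the 11 lay below 0, as Sox2 did, and 3 lay above. Of all measured genes, 34.0% were below 0 on both arrays and 25.7% above. Sox1, a SoxB1 relative restricted to neural cells, read -0.14 ± 0.09, and Sox3, another SoxB1 gene, read 0.10 ± 0.17. The head factor Otx2 read -0.18 ± 0.20. The farthest from 0 were the eye-field genes Pax6 (0.45 ± 0.14) and Rax (0.35 ± 0.10), opposite in sign to Sox2. Dimmer probes read 0.36 for Pax6 and, where not measured, 0.05 for Pax6 and -0.03 for Rax. Whether the amount of neural tissue differed between the pools was not tested.

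Utf1 encodes a chromatin-bound protein of pluripotent cells and early germ cells and is a target of POU5F1 and SOX2. It had the largest mean ratio of the 9 genes. Its level was 11.54 and 12.04 in the homozygote, against 11.43 and 11.18 in the heterozygote. Both homozygote values lie above both heterozygote values, by a small margin on array 1. The ratio was 0.11 on array 1 and 0.87 on array 2, or 1.08-fold and 1.82-fold, so the size rule was met on array 2 alone. The mean of 0.49 ± 0.53 is smaller than its own spread, and the SD exceeded that of 98.2% of measured genes. The value moved little with the background method, at 0.48 without correction and 0.50 with the scanner software's log ratio. With median centring it was 0.67, or 0.55 relative to the median of all genes in that setting.

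Zfp42 (REX1), a zinc finger gene used as a marker of naive pluripotency and also active in trophoblast, was the most even of the set. Its brighter probe read 10.65 and 10.94 in the homozygote, against 10.46 and 10.76 in the heterozygote. The levels overlap between arrays, but within each array the homozygote was higher by 0.19. The dimmer probe, which shares 20 bases with it, gave 0.28 and 0.15, a mean of 0.22 ± 0.10. Its level was 10.16 and 10.30 in the homozygote, against 9.87 and 10.15 in the heterozygote, which do not overlap, by a small margin. Both probes therefore read above 0 on both arrays, at about 1.14-fold and 1.16-fold, far short of the rule. The brighter probe lies at chr8:44794130-44794189 and the dimmer at chr8:44794170-44794241, a span of 72 bases, both on the minus strand of mm8.

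**Figure D2:**
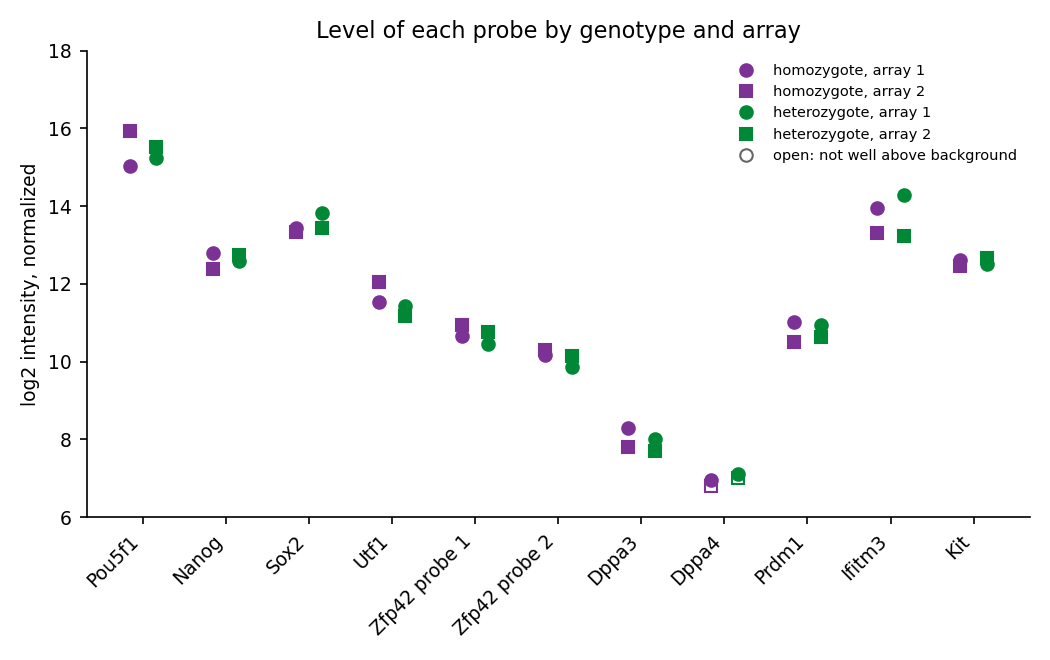
Normalized log2 intensity (y axis) of each probe (x axis) in the homozygote (left of each pair) and the heterozygote (right), on array 1 (circles) and array 2 (squares), with open symbols where the probe was not well above background. Heights of different probes are not comparable. The open symbols are those of Dppa4 on array 2. Utf1 and Zfp42 probe 2 have both homozygote points above both heterozygote points, and Dppa4, which was not measured, has both below.

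Dppa3 (STELLA), which protects maternal methylation in the mouse zygote and marks primordial germ cells, was dim on its probe at chr6:122595735-122595794, plus strand, mm8. Its raw foreground was 5.77 and 3.47 times the local background in the homozygote, against 4.58 and 5.0 times in the heterozygote. Before normalization the sample in Cy5 was the larger on both arrays. The probe was still well above background in all 4 samples. Its level was 8.28 and 7.80 in the homozygote, against 8.02 and 7.71 in the heterozygote, and these ranges overlap. The ratio was 0.26 and 0.10, a mean of 0.18 ± 0.12, and the mean was 0.32 with the software's log ratio and 0.36 with the authors' value table. Neither setting brought it past the rule.

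Dppa4, a chromatin-bound SAP-domain protein of pluripotent cells, was not measured by its probe at chr16:48213486-48213545, plus strand, mm8. It was well above background in both genotypes on array 1 and in neither on array 2. Its raw foreground was 2.32 and 2.01 times the local background in the homozygote, against 3.23 and 2.66 times in the heterozygote. The ratio of -0.15 and -0.22 is given as a reading near background, with no fold. Its neighbour and partner Dppa2, with a probe 24.8 kb away, was measured and read -0.43 ± 0.15. Dppa5a, an RNA-binding protein of pluripotent cells that is not related in sequence, read -0.04 ± 0.01.

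Prdm1, the SET-domain repressor that starts germ cell fate, is also on in visceral endoderm and anterior mesendoderm of the mouse gastrula. Its probe lies at chr10:44125900-44125959, minus strand, mm8. It read 11.01 and 10.51 in the homozygote, against 10.93 and 10.62 in the heterozygote. The genotypes overlap, and array 1 read higher than array 2 in both. The ratio was 0.08 and -0.11, a mean of -0.02 ± 0.14, the closest to 0 of the 9. Only 8.29% of measured genes had a mean closer to 0. With median centring it read 0.15, or 0.03 relative to all genes. None of the 12 listed anterior mesendoderm and endoderm genes was called; Gsc, of the anterior streak and prechordal plate, was farthest from 0 at -0.66 ± 0.20.

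Ifitm3, an interferon-inducible membrane protein of epiblast and germ cells, was bright on its probe at chr7:140861012-140861071, minus strand, mm8. Its level was 13.95 and 13.32 in the homozygote, against 14.28 and 13.22 in the heterozygote. The arrays differed more than the genotypes did, and the ranges overlap. The ratio was -0.34 and 0.09, a mean of -0.12 ± 0.31, with Cy3 higher on both arrays as for Pou5f1. It read 0.13 with median centring, or 0.01 relative to all genes. Ifitm1 (FRAGILIS2), 40.1 kb away, read -0.11 ± 0.03, and the brighter probe of Ifitm2 read -0.07 ± 0.01. A second Ifitm2 probe changed sign with the dyes as Ifitm3 did, at -0.31 on array 1 and 0.26 on array 2. Of 9 listed relatives of Ifitm3 and Kit, 7 were measured and 0 called, with a median of -0.09. The family is similar in sequence, and whether its probes share transcripts was not tested.

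Kit, the receptor that germ cells and blood progenitors need for survival and migration, gives the best view of error within an array, since its probe was spotted 10 times. Over the spots of array 1 the ratio ran from 0.06 to 0.18 with a median of 0.11 (SD 0.03 over spots). On array 2, 1 spot was marked as an outlier and left out, and the other 9 ran from -0.23 to -0.16 with a median of -0.19 (SD 0.02). The 2 sets of spots do not overlap, and the sample in Cy5 was higher in each. The SD over repeat spots was thus far smaller than the SD over arrays of 0.22. The probe lies at chr5:75937959-75938018, plus strand, mm8. The level was 12.63 and 12.47 in the homozygote, against 12.51 and 12.66 in the heterozygote. These overlap, and the mean ratio was -0.04 ± 0.22, or 0.16 with median centring and 0.04 relative to all genes there. Kitl, the ligand of KIT, read -0.10 ± 0.43 on its measured probe and changed sign with the dyes as Kit did, from 0.20 on array 1 to -0.40 on array 2.

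**Figure D3:**
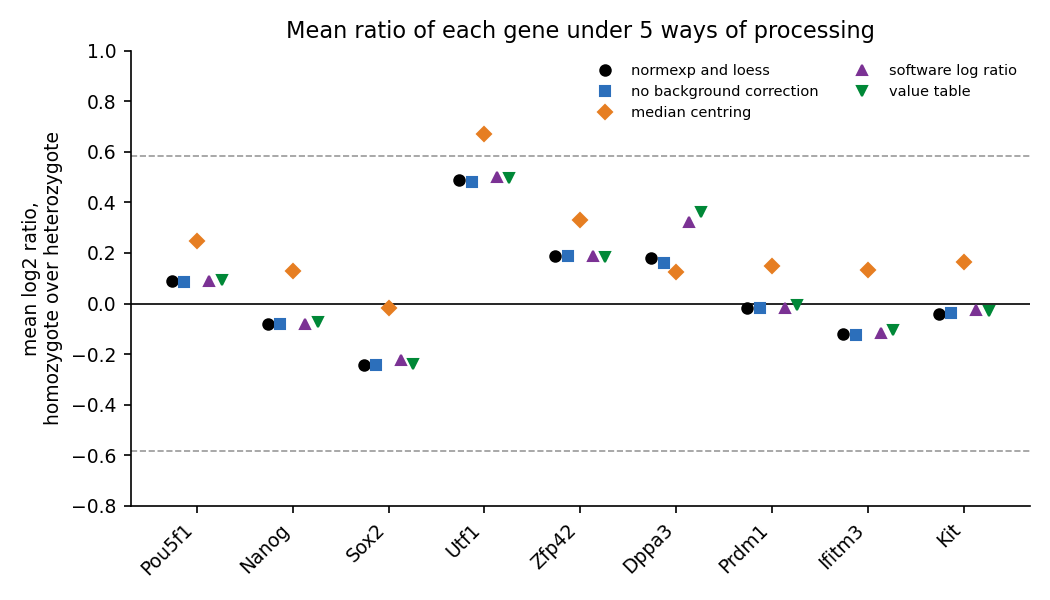
Mean log2 ratio of homozygote over heterozygote (y axis) for the 9 measured genes under 5 ways of processing, with dashed lines at 1.5-fold. Median centring reads higher than loess for every gene but Dppa3 and puts Nanog, Prdm1, Ifitm3 and Kit above 0, in a setting where the median of all measured genes is 0.12.

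Other genes of these programmes were read from lists. Naive pluripotency genes had 15 of 18 measured and 0 called, with a median of 0.01. The list's median was -0.05 on each array, opposite in sign to the median of the means. On both arrays 7 genes lay below 0 and 3 above, beside 34.0% and 25.7% of all measured genes. Tcl1, an AKT coactivator, and the nuclear receptor gene Nr5a2 lay farthest from 0 among those of 1 sign, at -0.45 ± 0.08 and -0.43 ± 0.19. All 22 epiblast and primed genes were measured and 0 were called (median 0.01). Their median was -0.05 on array 1 and 0.05 on array 2, with 7 genes above 0 on both arrays and 5 below. The zinc finger gene Zic2 lay farthest from 0, at -0.64 ± 0.32.

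Among genes of germ cell specification, 19 of 21 were measured and 0 were called (median -0.04), with 9 below 0 on both arrays and 4 above. The shares over all measured genes were 34.0% below and 25.7% above. Tfap2c, which acts downstream of PRDM1 in germ cells and also in trophoblast, read -0.31 ± 0.03. Alpl, the alkaline phosphatase by which germ cells are stained, read -0.02 ± 0.03. Nanos3, an RNA-binding protein of germ cell survival, was not measured, and Prdm14 had no matching probe. The chemokine receptor gene Cxcr4 (-0.43 ± 0.31) and the BMP effector gene Smad1 (-0.33 ± 0.43) lay farthest from 0, and other probes read 0.06 and -0.16. T, a mesoderm factor that primes germ cell genes in mouse, was above 0 on both arrays at 0.33 ± 0.02. Of 16 genes of later germ cells, 10 were measured and 0 called (median -0.03). Their median changed sign with the dyes, at 0.10 on array 1 and -0.16 on array 2. Rnf17 (0.44 ± 0.08) and Stra8 (-0.39 ± 0.09), genes of spermatogenesis and meiotic entry, had opposite signs.

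**Figure D4:**
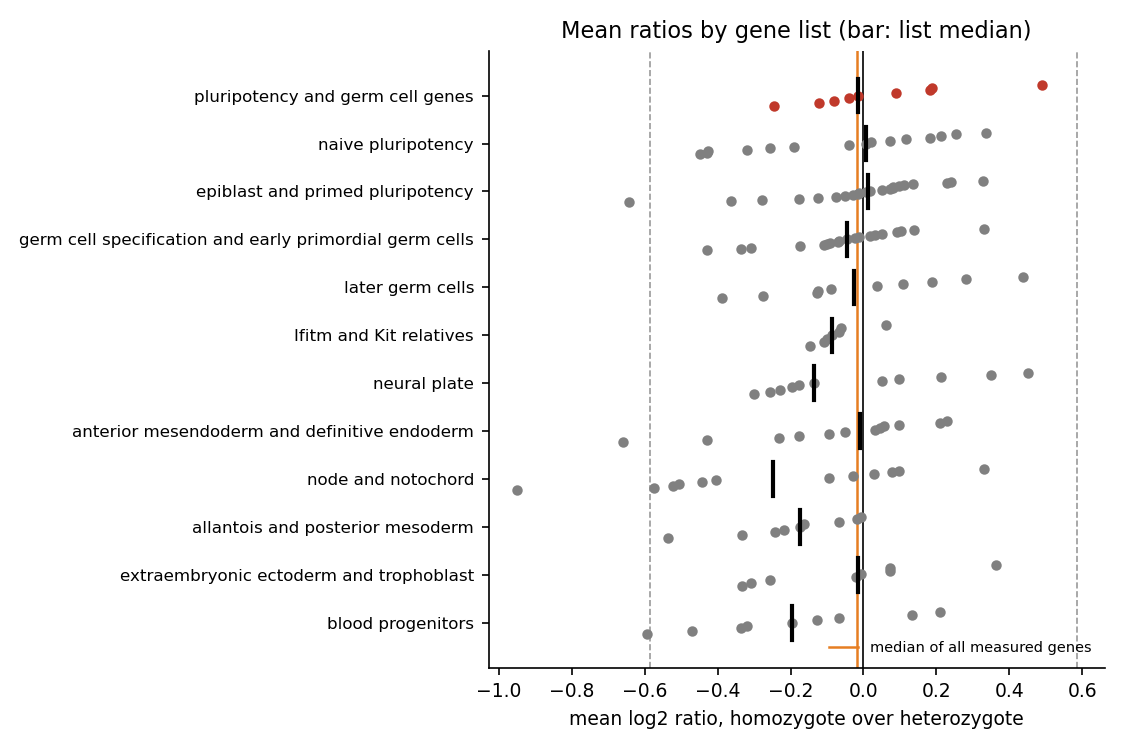
Mean log2 ratio of homozygote over heterozygote (x axis) of each measured gene, by list (rows), with list medians as black bars, the median of all measured genes in orange and dashed lines at 1.5-fold. The 9 genes sit between -0.24 and 0.49 with no point beyond a dashed line, and the node and notochord list has the lowest median, at -0.25. The lists were chosen with earlier results of these data known.

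Lists of tissues that could also hold these transcripts had 1 call in all, where 2.41% of measured genes were called. It was Dynlrb2, a dynein light chain in the node and notochord list, at -0.95 ± 0.04 (1 of 12; its second probe read -0.82). With median centring it read -0.38 on array 1 and -1.07 on array 2 and was not called, and the medians of all genes there were 0.39 and -0.16. Foxd4 (-0.57 ± 0.09) and Foxj1 (-0.52 ± 0.09) missed the rule. The node and notochord list, like the others, was chosen with earlier results of these data known. It had a median of -0.25, with 7 of 12 below 0 on both arrays. Of the 9 pluripotency and germ cell genes 1 was below 0 on both, and of all measured genes 34.0%. Genes of the allantois and posterior mesoderm, where germ cells arise, had 9 of 10 measured, 0 called and a median of -0.17, with 7 of 9 below 0 on both arrays. Cdx1 (-0.54 ± 0.30) and Hand1 (-0.33 ± 0.16) were farthest from 0. Blood progenitor genes, some of them in KIT-positive cells, had 9 of 10 measured, 0 called and a median of -0.20, with 6 of 9 below 0 on both. Among them Etv2 read -0.59 ± 0.21 and Tal1 read -0.47 ± 0.27. Extraembryonic ectoderm and trophoblast genes had 8 of 10 measured, 0 called and a median of -0.01. That median was -0.14 on array 1 and -0.05 on array 2, and Prl3d1 read 0.36 ± 0.09. The part of these tissues in any ratio above was not tested, and how much of each the distal pieces held was not examined.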

How the data were processed

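Per the file headers, the authors read the 2 arrays with Agilent Feature Extraction 9.5.3.1 and deposited foreground and background intensity per spot and dye, a log10 ratio of red over green, and flags. The authors also deposited a value table of processed signal. Its columns were close to the processed intensity of their own dye times 1.07 on array 1 and 1.28 on array 2 (SD of the log2 quotient 0.0018 or less and 0.062 or less), with a floor at 15 and medians of 95.1 to 110.6, and how it was made is unstated. Paired samples had identical scanner files, read once. With limma 3.58.1 in R 4.3.3, normexp (offset 50) and loess with controls at weight 0 gave log2 ratios, array 2 was turned, outlier spots were left out and spots of 1 probe averaged. A gene took its brightest measured probe. Symbols were updated through RefSeq (33116 probes matched, 8058 kept the file's name). The steps were tested on simulated data whose dye bias varied only with brightness, so dye effects of single probes were not covered. Python 3.11.15 and matplotlib 3.10.9 gave summaries and plots. The number of arrays limits precision. The genes, lists and alternatives were chosen with earlier results of these data known. Named are the 10 genes, 14 fixed others, and in each list called genes and the 2 farthest from 0 with 1 sign on both arrays. A gene that this rule names is not reported here.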

Additional observations from a re-analysis of the deposited data

How the results depend on the processing

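No paired analysis was possible because no result here has a test and each ratio already lies within 1 array, which is also 1 slide and 1 scan. Limits are the single pool of each genotype, arrays that are technical repeats and dim probes for Dppa3 and Dppa4. The count of called genes among the 10 was 0 under every setting with both arrays: no background correction, median centring, the software's log ratio, the value table, both filters on dim probes, the mean of probes and a 1.3-fold limit. It was 0 to 1 when either array was left out, and the median ratio was then 0.094 to 0.11. The median was 0.15 with median centring, where that of all genes was 0.12. The sign changed there in 4 of 9 genes and 0 under the other settings with both arrays. Single genes other than Zfp42 moved by more than their SD in 4 of 56 comparisons. For Zfp42, whose SD over arrays was 0.0, that limit has no meaning, and its values ran from 0.18 to 0.33.

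Median centring left 0 calls in the node list, where Dynlrb2 averaged -0.73, and the software's log ratio gave 1 in later germ cells (Rnf17). A 1.3-fold limit, which is met by more genes by construction, called 1 gene each in the naive, epiblast, later germ cell, endoderm and blood lists and 4 in the node list. On 1 array alone, 1 gene each was called in the naive, germ cell specification and blood lists on either array, but not the same call. In the naive list Klf2 was lower on array 1 and higher on array 2. In the other lists the genes differed, with Smad1 and Etv2 on array 1 and Cxcr4 and Tal1 on array 2. The counts were 0 to 2 for epiblast genes and for endoderm genes, 1 to 4 for node genes and 0 to 1 for allantois genes. Over all genes 448 were called, against 814 with the software's log ratio, 746 with the value table, 1032 at 1.3-fold, and 768 and 1058 on array 1 and array 2 alone. The cause of the other shifts was not tested.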

Other observations

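Klf2, a Kruppel-like factor of naive pluripotency, had the largest disagreement between arrays among the genes of these lists, a gene chosen after its values were seen. Its ratio of homozygote over heterozygote was -0.63 on array 1 and 1.13 on array 2, a mean of 0.25 ± 1.24, so that the sample in Cy3 read higher on both. With array 2 left unturned, which counts genes that follow the dye, Klf2 was 1 of the 14 genes past the size rule, and 0 of the 9 measured pluripotency and germ cell genes were. Within the naive list, Dppa2 (-0.43 ± 0.15), Tbx3 (-0.32 ± 0.03) and Klf4 (-0.19 ± 0.08) lay below 0 on both arrays, while Fbxo15 (0.34 ± 0.16) and Tfcp2l1 (0.21 ± 0.09) lay above 0 on both, the last 4 also chosen after their values were seen. In the epiblast list, 7 of the 22 genes lay above 0 on both arrays and 5 below. The 7 include the adhesion genes Cdh1 (0.33 ± 0.13) and Epcam (0.24 ± 0.23, 0.08 on array 1). Both were also chosen after their values were seen.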
